A study of Mus musculus with 16 samples.

Results

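The genes described here are 10 lymphocyte costimulatory and checkpoint receptor genes, Icos, Ctla4, Pdcd1, Tnfrsf4, Tnfrsf9, Tnfrsf18, Tigit, Lag3 and Havcr2 with the transcription factor gene Foxp3, and they were followed across subcapsular sinus macrophages (SSMs) and medullary sinus macrophages (MSMs). They were taken by symbol from the 55421 genes of the count table, and were chosen by their role and by the difference between SSMs and MSMs in lymph nodes away from the tumor, which was known. All 10 genes passed the filter on low counts that left 21085 genes for testing, and 8 of them also had a mean normalized count per lane over 100, which a gene needed to be called. Foxp3 and Lag3 fell short of it, with means of 72.8 and 30.3.

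RNA sequencing was done on cells sorted from lymph nodes of male C57B/6 mice, 2 weeks after MOC2 squamous carcinoma cells were implanted intradermally in the flank. Both subsets were sorted as live CD45+ CD3- B220- Ly6G- CD11b+ CD169+ cells, SSMs as CD11c- with low side scatter and MSMs as CD11c+ with high side scatter. The 4 groups were SSMs from non-draining lymph nodes (ndLNs), SSMs from tumor-draining lymph nodes (tdLNs), MSMs from ndLNs and MSMs from tdLNs, each with 2 libraries sequenced on 2 lanes, and the lanes were summed. A library came from a pool of 2 mice, with 2 tdLNs or 6 ndLNs. All mice carried a tumor, so that ndLNs are contralateral nodes of tumor-bearing animals and not nodes of tumor-free mice. The ndLNs included axillary and brachial nodes as well as inguinal nodes, and node site and tumor drainage cannot be told apart.

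Costimulatory receptors such as ICOS, CD137 (Tnfrsf9), OX40 (Tnfrsf4) and GITR (Tnfrsf18) amplify signals from the antigen receptor of T cells, and several of them are also carried by innate lymphoid cells, NK cells and activated myeloid cells. Inhibitory or checkpoint receptors such as CTLA-4, PD-1 (Pdcd1), TIGIT, LAG-3 and TIM-3 (Havcr2) restrain such signals, and TIM-3 is in addition well known on dendritic cells and macrophages. Foxp3 is the lineage factor of regulatory T cells, which carry ICOS, CTLA-4, GITR, OX40 and TIGIT at high levels.

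The sorted cells were checked against lineage markers. The summed level of 12 T cell genes was 2177 to 2405 normalized CPM, the counts of a gene relative to its TMM-scaled library, in SSMs from ndLNs, 1083 to 1189 in SSMs from tdLNs, 736 to 879 in MSMs from ndLNs and 495 to 530 in MSMs from tdLNs, although the gate removed CD3+ cells. Most of the MSM sum came from Cd8a, at 357 to 605 CPM, and Cd4, at 58.4 to 116. Each of Cd3d, Cd3e and Cd3g was at 2.14 to 21.7 CPM in the MSM libraries. The summed level of 13 genes of innate lymphoid and innate-like T cells was 1826 to 2197 CPM in SSMs from ndLNs, 689 to 735 in SSMs from tdLNs and 57.3 to 99.3 in MSMs. The summed level of 8 NK cell genes ranged from 2134 to 3474 CPM over the SSM libraries and from 214 to 325 over the MSM libraries. Klrk1 alone was at 244 to 315 CPM in SSMs and at 183 to 264 in MSMs. Siglec1, which encodes the sorted marker CD169, was at 8.47 to 70.0 CPM in SSMs but at 0.795 to 5.96 in MSMs, and the summed level of 8 dendritic cell genes was 4020 to 4473 CPM in MSMs against 882 to 2189 in SSMs. Of the lineage lists, that of 8 macrophage genes had the highest sum in every group. It was 6345 and 9698 CPM in SSMs of ndLNs, 16214 and 24033 in SSMs of tdLNs, and 4951 to 5638 over the MSM libraries. Lyz2 alone was at 3998 to 19309 CPM. For 8 mast cell and basophil genes sums were 1554 and 2235 CPM in SSMs of ndLNs but 233 and 493 in SSMs of tdLNs. Their MSM sums were 270 to 622 CPM, with Kit alone at 269 to 614. B cell genes were low throughout, with summed levels of 27.2 to 53.2 CPM over 6 genes. The part of these other lineages in the levels below was not tested, and in such bulk samples fewer cells of a type and less RNA per cell cannot be told apart.

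Several of the genes lie side by side in the mouse genome (GRCm38). Ctla4 (chr1:60887000-60915832) and Icos (chr1:60977927-61000320) are separated by 62094 bases with 0 protein-coding genes between them, downstream of the related Cd28. Tnfrsf4 (chr4:156013843-156016612) and Tnfrsf18 (chr4:156026164-156028895) are 9551 bases apart, also with 0 protein-coding genes between them, and Lag3 (chr6:124904361-124911705) is next to Cd4 at 16139 bases. The others were Pdcd1 (chr1:94038305-94052553), Tnfrsf9 (chr4:150914562-150946102), Foxp3 (chrX:7573644-7595245), Tigit (chr16:43648867-43664146) and Havcr2 (chr11:46454935-46481255).

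RefSeq promoter windows (GRCm38.p6, 250 bases before to 50 after a start) were matched for 8 of the 10 genes, with 10 windows, and Icos and Lag3 had no match. The 250 bases before the start are shown for the genes that fell together in SSMs from tdLNs (Tnfrsf9, Tnfrsf18 and Pdcd1), for Tigit and for Havcr2. Tigit was the closest to Icos in its profile over the libraries, among those of the 10 genes that passed the mean count cut-off. Havcr2 rose in SSMs from tdLNs. Capitals mark matches, on either strand, to the AP-1 motif TGANTCA, the NFAT core TGGAAA, the RUNX motif TGTGGT or the TATA motif TATAAA.
Tnfrsf9 (downstream start), chr4:150927749-150927998, plus strand: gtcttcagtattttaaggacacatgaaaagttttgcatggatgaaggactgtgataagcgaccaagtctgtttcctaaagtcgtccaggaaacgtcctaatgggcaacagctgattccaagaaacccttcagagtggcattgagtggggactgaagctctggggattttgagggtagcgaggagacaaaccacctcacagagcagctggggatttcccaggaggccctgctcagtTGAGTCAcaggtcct
Tnfrsf18, chr4:156026072-156026321, plus strand: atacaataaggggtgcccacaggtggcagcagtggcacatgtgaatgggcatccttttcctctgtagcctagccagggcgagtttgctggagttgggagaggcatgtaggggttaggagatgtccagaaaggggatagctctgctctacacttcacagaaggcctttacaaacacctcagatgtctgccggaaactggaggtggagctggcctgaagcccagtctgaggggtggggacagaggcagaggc
Pdcd1, chr1:94052554-94052803, minus strand: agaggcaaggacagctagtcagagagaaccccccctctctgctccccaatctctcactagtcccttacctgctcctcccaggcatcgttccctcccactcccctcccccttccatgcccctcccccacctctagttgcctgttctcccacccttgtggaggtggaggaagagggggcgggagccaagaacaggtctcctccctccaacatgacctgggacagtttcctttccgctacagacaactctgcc
Tigit, chr16:43664185-43664434, minus strand: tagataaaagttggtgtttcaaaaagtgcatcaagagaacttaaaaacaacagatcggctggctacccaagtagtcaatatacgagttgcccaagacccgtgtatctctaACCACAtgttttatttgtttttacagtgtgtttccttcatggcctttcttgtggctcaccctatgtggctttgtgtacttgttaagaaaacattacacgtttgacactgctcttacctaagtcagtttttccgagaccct
Havcr2, chr11:46454681-46454930, plus strand: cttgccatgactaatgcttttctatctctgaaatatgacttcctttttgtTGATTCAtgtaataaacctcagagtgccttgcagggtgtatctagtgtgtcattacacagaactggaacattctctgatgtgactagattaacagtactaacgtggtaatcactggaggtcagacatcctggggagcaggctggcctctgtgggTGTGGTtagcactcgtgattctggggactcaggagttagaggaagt
The AP-1 motif was matched in the windows of Tnfrsf9 and Havcr2, and in 7.81% of all 32851 promoter windows. The RUNX motif was matched in Tnfrsf9, where it lies in the bases after the start and is not shown, in Tigit and in Havcr2, and in 16.8% of all windows. The windows of Tnfrsf18 and Pdcd1 held none of the motifs searched, which also included a kappaB (GGGA and TTCC around any 2 bases), a forkhead (TGTTTAC) and a T-box (GGTGTGA) motif, present in 1.47%, 3.65% and 3.98% of all windows and in 0 windows of these genes. The NFAT core was in windows of Ctla4, Foxp3, Tnfrsf4 and Tnfrsf9 and in 21.4% of all windows, and the TATA motif in windows of Ctla4 and Foxp3 and in 13.6% of all windows.

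In levels per kilobase of exon, which allow genes to be compared, the receptors of SSMs and MSMs had a different make-up. Icos made up 40.2% to 42.2% of the summed level of the 10 genes in the 4 SSM libraries and 1.79% to 4.32% in the 4 MSM libraries. Tnfrsf9 followed in SSMs with 20.4% to 29.5% and Tnfrsf18 with 11.7% to 14.6%. Havcr2 made up 62.7% to 79.8% in MSMs and 2.12% to 14.8% in SSMs, with the higher SSM values in tdLNs. Foxp3, Tigit and Lag3 were minor components, none above 2.59% in any library. The summed level was 648 and 766 CPM per kb in SSMs from ndLNs, 302 and 352 in SSMs from tdLNs, 401 and 389 in MSMs from ndLNs and 285 and 287 in MSMs from tdLNs, so that the highest total was found in SSMs from ndLNs.

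**Figure D1:**
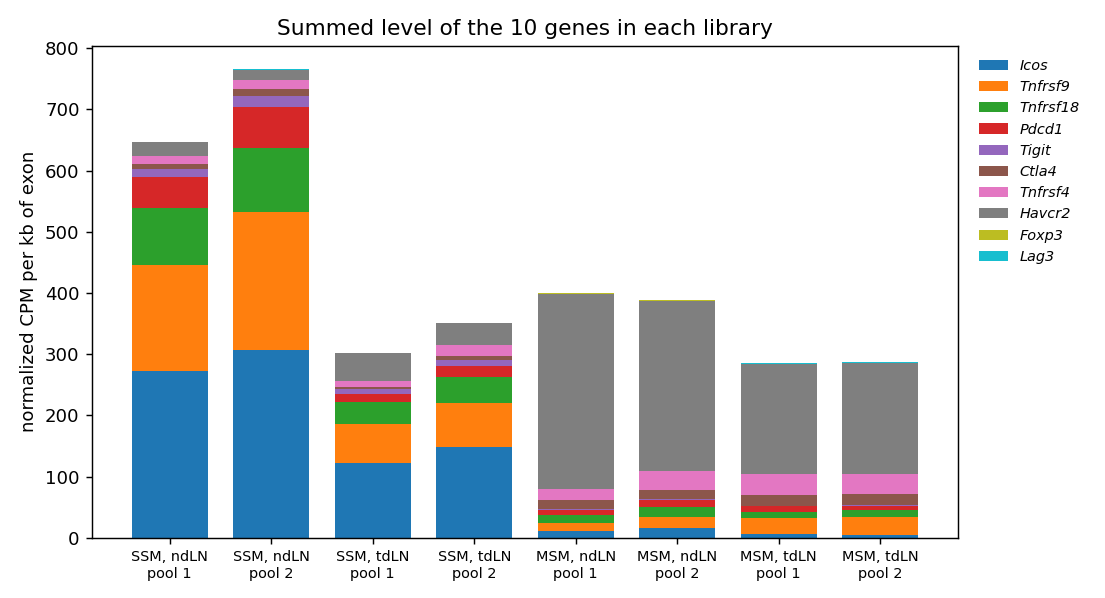
Stacked bars give the normalized CPM per kb of exon (vertical axis, linear from 0) of the 10 genes in each of the 8 libraries, named by subset, node and pool. Icos is the largest segment in all 4 SSM libraries and Havcr2 in all 4 MSM libraries, and the bars of SSMs from ndLNs, at 648 and 766, are the highest.

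Icos, which encodes the inducible costimulator, was at 935 and 1054 CPM in SSMs from ndLNs, 417 and 509 in SSMs from tdLNs, 37.5 and 57.6 in MSMs from ndLNs and 21.4 and 17.7 in MSMs from tdLNs. The 4 groups did not overlap, and every SSM library was above every MSM library. In ndLNs, where the values were known when the genes were chosen and no test is given, SSMs had a mean of 995 ± 84.3 CPM (SD, n = 2) against 47.5 ± 14.2 in MSMs, a log2 fold change of 4.40. In tdLNs, SSMs were higher by 4.55 ± 0.22 (log2, SE; edgeR adjusted p = 4.76e-05), or 23.5-fold. This call was kept in all 16 alternative settings. The fall of Icos from ndLNs to tdLNs in SSMs, -1.11 ± 0.18 (log2, SE), had an edgeR adjusted p of 0.0119 and missed the threshold of 0.01, although it passed in each lane alone and by DESeq2. The comparisons between nodes, here and for the genes below, use the ndLN libraries in which the genes were chosen. Their p-values are therefore not independent of that choice. The subset difference of Icos and T cell genes over all libraries, tdLNs included, was also known. The p-values between subsets in tdLNs are thus not fully independent either.

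Tnfrsf9 encodes CD137 (4-1BB), a TNF receptor family member induced by activation on T and NK cells and also on some myeloid cells. It was at 469 and 614 CPM in SSMs from ndLNs, 175 and 195 in SSMs from tdLNs, 37.4 and 48.1 in MSMs from ndLNs and 70.9 and 76.7 in MSMs from tdLNs. The groups did not overlap, and the order of nodes was opposite in the subsets, with ndLNs above tdLNs in SSMs and below them in MSMs. In SSMs it fell by 1.54 ± 0.13 (log2, SE; edgeR adjusted p = 0.00172), to 0.341 times the ndLN mean, a call lost without SSM library 2 from ndLNs or either SSM library from tdLNs (adjusted p up to 0.044 over all settings). In MSMs the difference was 0.80 ± 0.14 (log2, SE; edgeR adjusted p = 0.0753), which was not called. The node difference in SSMs minus that in MSMs, the interaction, was -2.34 ± 0.19 (log2, SE). The comparisons between nodes share the ndLN libraries in which the genes were chosen, and their p-values are not independent of that choice. The interaction contains the ndLN difference by which the genes were chosen, so it is given as a description with no test. Its fit called 0.0379% of all genes tested. In the 8 fits that left out 1 library its value for Tnfrsf9 ran from -2.43 to -2.24. In tdLNs SSMs remained above MSMs, by 1.32 ± 0.14 (log2, SE; edgeR adjusted p = 0.000636), against a log2 fold change of 3.66 in ndLNs, and this call was lost without either SSM library or without MSM library 2 from tdLNs (adjusted p up to 0.0161).

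Tnfrsf18, the gene of GITR, was at 144 and 157 CPM in SSMs from ndLNs, 54.0 and 64.9 in SSMs from tdLNs, 18.6 and 24.8 in MSMs from ndLNs and 15.2 and 17.5 in MSMs from tdLNs. It followed the same order of groups as Icos, with no overlap. In SSMs from tdLNs it fell by 1.35 ± 0.15 (log2, SE; edgeR adjusted p = 0.00265), a 2.54-fold change whose call was lost when any 1 of the 4 SSM libraries or of the 2 MSM libraries from tdLNs was left out (adjusted p up to 0.0631 over all settings). In tdLNs SSMs exceeded MSMs by 1.86 ± 0.16 (log2, SE; edgeR adjusted p = 0.000309), and this call was kept in all 16 alternative settings. Of its exon bases, 27.2% overlap Gm16008 on the opposite strand, and reads of the pair cannot be told apart because the strand setting of the counting is not given in the sources used here.

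Tnfrsf4, the gene of OX40, behaved otherwise than its chromosomal neighbor Tnfrsf18. It was at 18.9 and 20.9 CPM in SSMs from ndLNs, 14.0 and 25.4 in SSMs from tdLNs, 24.7 and 44.5 in MSMs from ndLNs and 48.8 and 44.6 in MSMs from tdLNs. The MSM libraries from ndLNs lay far apart, and SSMs from both nodes overlapped. edgeR did not call it in any comparison, with differences of -1.30 ± 0.28 between SSMs and MSMs in tdLNs (log2, SE; edgeR adjusted p = 0.0179) and -0.05 ± 0.29 between tdLNs and ndLNs in SSMs (edgeR adjusted p = 0.957), and DESeq2 called the former.

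Pdcd1 encodes PD-1, an inhibitory receptor induced on activated and exhausted T cells and also reported on innate lymphoid and myeloid cells. It was at 98.1 and 131 CPM in SSMs from ndLNs, 26.7 and 36.1 in SSMs from tdLNs, 16.9 and 22.8 in MSMs from ndLNs and 17.9 and 14.8 in MSMs from tdLNs. SSMs from ndLNs stood apart, whereas SSMs from tdLNs were close to MSMs and the MSM groups overlapped. The fall in SSMs from ndLNs to tdLNs starts from values known when the genes were chosen, and its p-value is not independent of that choice. At -1.86 ± 0.21 (log2, SE; edgeR adjusted p = 0.00268), the fall was the largest among the 10 genes in that comparison and brought the mean from 115 ± 23.2 to 31.4 ± 6.63 CPM (SD, n = 2). It was not called when any 1 of the 4 SSM libraries or of the 2 MSM libraries from ndLNs was left out, with an adjusted p up to 0.0637 over all settings. In tdLNs the SSMs were 0.92 ± 0.22 above MSMs (log2, SE; edgeR adjusted p = 0.027), which did not pass except by DESeq2, while in ndLNs the log2 fold change was 2.53. The node difference in SSMs minus that in MSMs was -1.60 ± 0.31 (log2, SE).

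Ctla4 encodes CTLA-4, the inhibitory counterpart of CD28 that binds the same ligands. It was at 18.1 and 25.2 CPM in SSMs from ndLNs, 8.59 and 14.9 in SSMs from tdLNs, 34.3 and 31.2 in MSMs from ndLNs and 40.0 and 41.9 in MSMs from tdLNs. Unlike Icos, which lies beside it, Ctla4 was lower in every SSM library than in every MSM library. In tdLNs SSMs were lower than MSMs by -1.82 ± 0.26 (log2, SE; edgeR adjusted p = 0.00253), a call lost when any of the 4 tdLN libraries was left out (adjusted p up to 0.0381). Between nodes it was not called in SSMs (-0.88 ± 0.26, log2, SE; edgeR adjusted p = 0.08) or in MSMs (0.32 ± 0.24, log2, SE; edgeR adjusted p = 0.649).

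Tigit, an inhibitory receptor of T and NK cells that binds CD155 (Pvr), was at 11.4 and 16.6 CPM in SSMs from ndLNs, 6.93 and 8.37 in SSMs from tdLNs, 0.590 and 1.25 in MSMs from ndLNs and 0.461 and 0.308 in MSMs from tdLNs. The MSM values rest on 14 to 56 counts in a library. The groups did not overlap and had the order seen for Icos. In tdLNs SSMs were above MSMs by 4.33 ± 0.46 (log2, SE; edgeR adjusted p = 0.000691), while the difference of -0.86 ± 0.25 between nodes in SSMs was not called (log2, SE; edgeR adjusted p = 0.0756). The former call was lost without either SSM library or without MSM library 2 from tdLNs, with adjusted p up to 0.0213.

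Havcr2, the gene of TIM-3, had its highest level in MSMs from ndLNs. It was at 62.1 and 44.2 CPM in SSMs from ndLNs, 122 and 96.3 in SSMs from tdLNs, 870 and 752 in MSMs from ndLNs and 486 and 494 in MSMs from tdLNs. The 4 groups did not overlap, and the node order was again opposite in the subsets, with tdLNs higher in SSMs and lower in MSMs. In tdLNs SSMs were lower than MSMs by -2.18 ± 0.15 (log2, SE; edgeR adjusted p = 0.000136), a call kept in all 16 alternative settings, and in ndLNs the log2 fold change was -3.94. In SSMs it rose by 1.04 ± 0.15 from ndLNs to tdLNs (log2, SE; edgeR adjusted p = 0.0073), with an edgeR adjusted p of 0.0107 when the pool term was left out, and the rise was not called in any fit without 1 library. The MSM difference, -0.72 ± 0.15 (log2, SE; edgeR adjusted p = 0.117), was not called, and the node difference in SSMs minus that in MSMs was 1.76 ± 0.21 (log2, SE).

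The low-count genes gave no call. Foxp3 was at 0.975 and 3.09 CPM in SSMs from ndLNs, 2.85 and 2.25 in SSMs from tdLNs, 5.69 and 6.84 in MSMs from ndLNs and 1.07 and 3.04 in MSMs from tdLNs, or 44 to 307 counts in a library. Only the MSM libraries from ndLNs stood above the rest. Its exons share 18.6% of their bases with Flicr on the same strand and 18.7% with genes on the opposite strand, and reads of these genes and Foxp3 cannot be told apart there. Lag3, an inhibitory receptor that binds MHC class II, was at 0.901 and 0.627 CPM in SSMs from ndLNs, 0.628 and 0.390 in SSMs from tdLNs, 1.62 and 2.12 in MSMs from ndLNs and 2.38 and 2.07 in MSMs from tdLNs, or 17 to 98 counts. Every MSM library was above every SSM library, with a difference in tdLNs of -2.12 ± 0.57 (log2, SE; edgeR adjusted p = 0.0422).

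**Figure D2:**
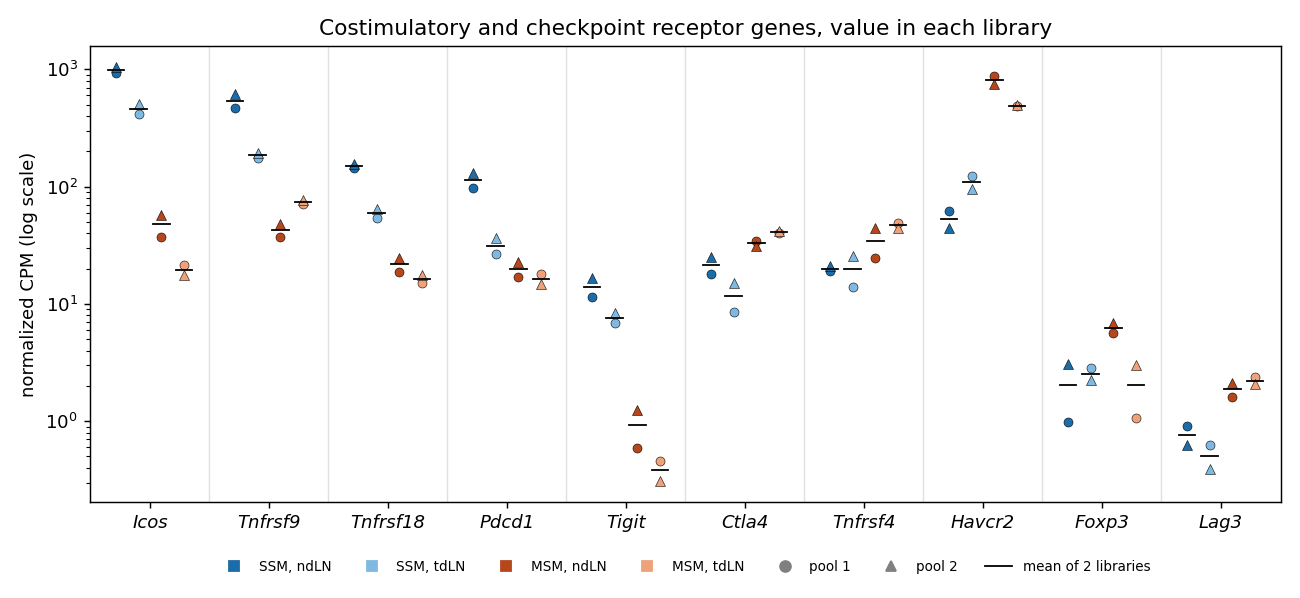
Normalized CPM (vertical axis, log scale) of each gene in each library, colored by group and shaped by pool, with a line at the mean of 2 libraries. Icos, Tnfrsf9, Tnfrsf18, Pdcd1 and Tigit are highest in SSMs from ndLNs, and Havcr2, at 752 to 870 CPM, is highest in MSMs from ndLNs.

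Across the comparisons, 6 of the 10 genes were called between SSMs and MSMs in tdLNs, 4 higher in SSMs and 2 lower, against 8.69% of all genes tested, 5.16% higher and 3.52% lower. The genes were chosen by the ndLN difference, but the difference of Icos and T cell genes over all libraries, tdLNs included, was also known. The calls in tdLNs are therefore not fully independent of the choice. In ndLNs all 10 genes separated the subsets without overlap, 5 in each direction, as did 57.2% of all genes. In tdLNs 5 of the 10 were higher and 4 lower in SSMs without overlap, and 56.6% of all genes did not overlap. Between nodes in SSMs, 1 of the 10 was higher and 6 were lower in tdLNs without overlap, and 51.9% of all genes did not overlap. In MSMs 3 were higher and 5 lower in tdLNs without overlap, and 38.5% of all genes did not overlap. Between tdLNs and ndLNs, 4 of the 10 were called in SSMs, 1 higher and 3 lower, against 3.04% of all genes, 1.99% higher and 1.05% lower, and the median log2 fold change of the 10 was -0.87 against -0.04 over all genes tested. In MSMs edgeR called 0 of the 10, against 0.0237% of all genes, with 5 of the 10 at an unadjusted p under 0.05, as were 2517 of the 21085 genes tested. DESeq2 called 3 of the 10 (Icos, Tnfrsf9 and Havcr2) and 458 genes in all. The comparisons between nodes, and the interaction, share the ndLN libraries in which the genes were chosen, so that their calls are not independent of that choice. The p-values rest on the spread left after group and pool, estimated over all 8 libraries. With 2 pools a group, they do not cover variation beyond these pools.

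**Figure D3:**
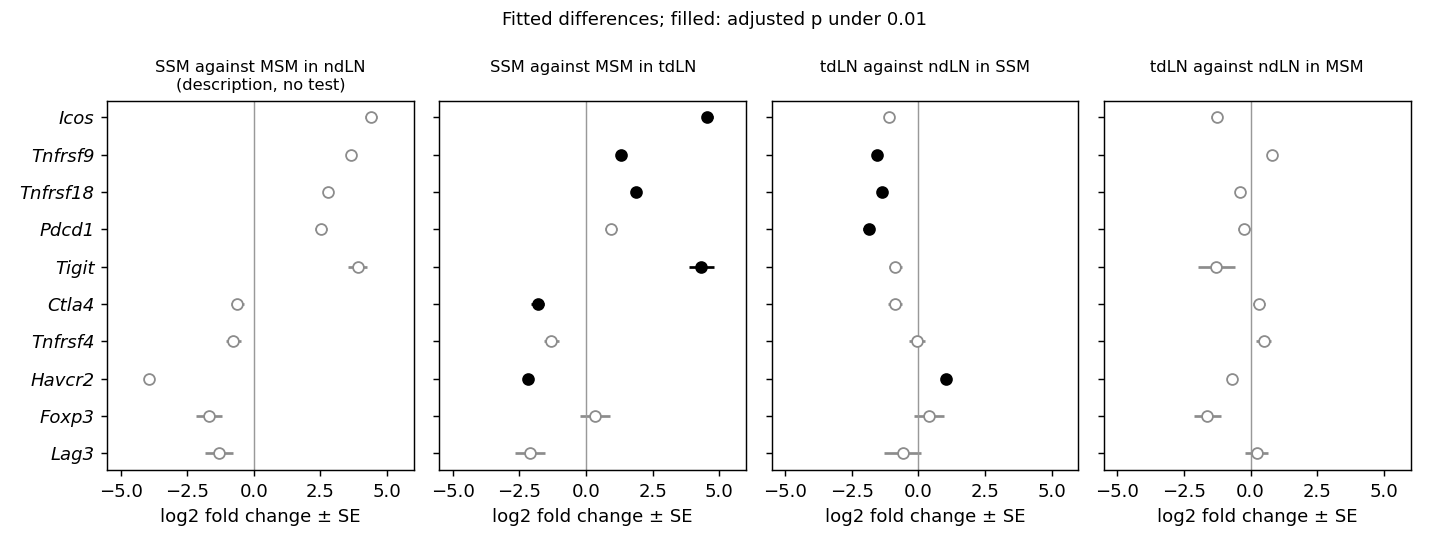
Fitted log2 fold changes with standard errors (horizontal axis) of the 10 genes in 4 comparisons, with filled points for an adjusted p under 0.01. The subset difference of Tnfrsf9 is 3.66 in ndLNs and 1.32 in tdLNs, and in SSMs 3 of the filled points lie below 0 while Havcr2 lies above it.

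Marker genes of other cell types also differed between nodes. Of all genes tested, 3.04% were called between nodes in SSMs, 1.99% higher and 1.05% lower in tdLNs, and 0.0237% in MSMs. In SSMs from tdLNs 3 of 12 T cell genes were called lower (Cd4, Cd8b1 and Zap70), all 12 had a negative fold change, and their median was -0.85 on the log2 scale. Among 13 innate lymphoid and innate-like T cell genes, 5 were called lower (Il23r, Il22, Il7r, Gata3 and Ccr6) with a median of -1.47, whereas 0 of 8 NK cell genes were called (median -0.27) and 6 of 8 macrophage genes were called higher (median 1.37). In MSMs none of these lists had a gene called, but all 12 T cell genes were negative with a median of -2.32, and so were all 13 innate lymphoid genes with a median of -1.45, beside a value of 0.80 for Tnfrsf9. In SSMs from tdLNs, Cpa3 and Kit, both mast cell genes, were called lower and Mcpt8, a basophil protease gene, higher. These counts were not recomputed without single libraries, and the part of these changes in the receptor levels was not tested.

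The ratio of each gene to the summed CD3 chains (Cd3d, Cd3e and Cd3g) of its library gives its level relative to a sum that itself differed widely between libraries. The summed CD3 chains were at 444 and 478 CPM in SSMs from ndLNs, 249 and 280 in SSMs from tdLNs, 45.3 and 55.6 in MSMs from ndLNs and 12.9 and 6.69 in MSMs from tdLNs. Icos was on average 2.16 ± 0.0697 times this sum in SSMs from ndLNs (SD, n = 2), 1.68 and 1.82 times in SSMs from tdLNs, 0.827 and 1.03 times in MSMs from ndLNs and 1.66 and 2.64 times in MSMs from tdLNs. The ratio of Icos therefore spanned a much narrower range than its level. For Tigit the ratio was 0.0256 to 0.0347 in SSMs and 0.0130 to 0.0461 in MSMs, and both subsets overlapped. Tnfrsf9 fell also on this scale in SSMs, from 1.06 and 1.28 to 0.701 and 0.697, as did Pdcd1, from 0.221 and 0.274 to 0.107 and 0.129, and Tnfrsf18, from 0.324 and 0.329 to 0.217 and 0.232. In MSMs, where the CD3 sum was low, the ratios were higher in tdLNs than in ndLNs for all 3 genes, at 5.50 and 11.5 against 0.825 and 0.865 for Tnfrsf9, 1.39 and 2.22 against 0.372 and 0.410 for Pdcd1 and 1.18 and 2.62 against 0.411 and 0.445 for Tnfrsf18. On this scale all 3 were lower in SSMs than in MSMs in tdLNs, opposite to the order of their levels. The ratio of Havcr2 was 0.0925 to 0.490 in SSMs and 13.5 to 73.9 in MSMs, and that of Ctla4 was 0.0345 to 0.0534 in SSMs and 0.560 to 6.27 in MSMs.

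**Figure D4:**
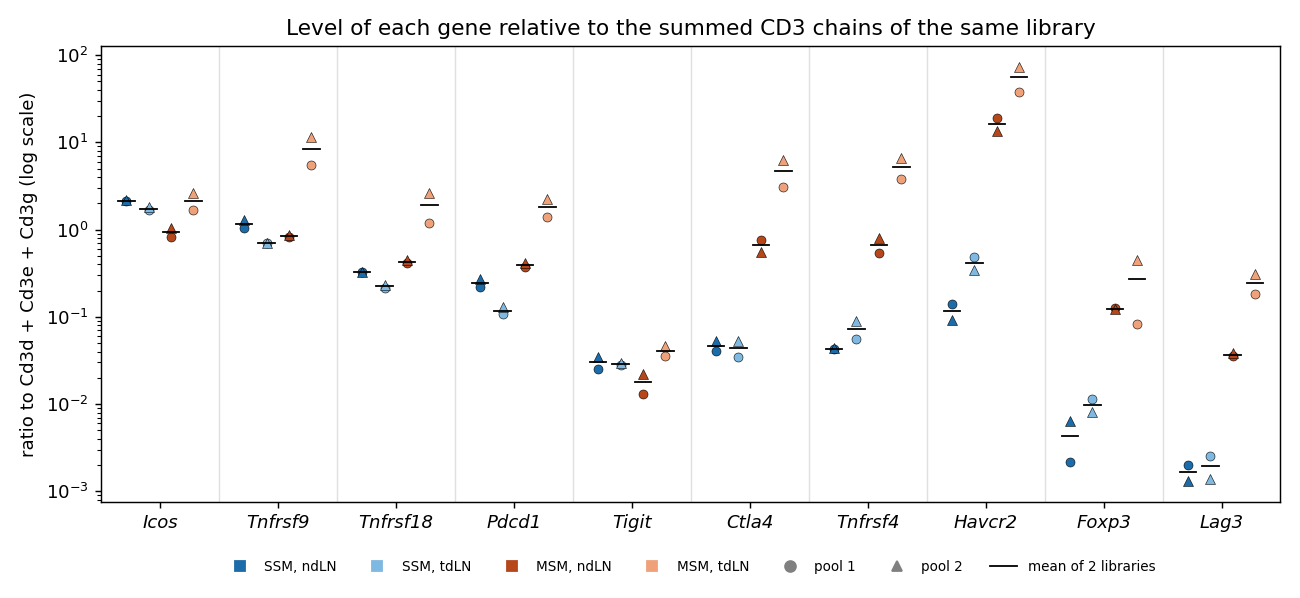
Ratio of each gene to the sum of Cd3d, Cd3e and Cd3g in the same library (vertical axis, log scale), with colors and shapes for groups and pools and a line at the mean of 2 libraries. Icos lies between 0.827 and 2.64 in all 8 libraries, while Havcr2 spans 0.0925 to 73.9.

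Other lymphocyte co-receptors, 20 genes listed with the earlier results known, were called in 11 cases between SSMs and MSMs in tdLNs, where 8.69% of all genes tested were called. Of these 10 were higher in SSMs, among them Cd28 at 47.2 and 57.7 CPM against 3.51 and 3.41, the CD155 receptor gene Cd96 (means 83.8 ± 0.398 against 1.61 ± 0.0208 CPM, SD, n = 2) and Cd40lg (82.0 ± 8.61 against 0.777 ± 0.444). The exception was Btla, an inhibitory receptor of B, T and dendritic cells, at 23.7 and 26.4 CPM in SSMs and 506 and 573 in MSMs from tdLNs. In this respect Btla was placed like Havcr2 and Ctla4. Between nodes in SSMs, where 3.04% of all genes tested were called, Cd96 and Cd160 were called lower and Slamf6 and Vsir higher, with a list median of -0.66 (log2). In MSMs, where 0.0237% of all genes were called, Cd2 was called lower.

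Of 16 genes for ligands of these receptors, 4 were called between the subsets in tdLNs, where 8.69% of all genes tested were called. Icosl, the ligand gene of ICOS, was lower in SSMs (30.1 ± 2.38 against 78.1 ± 11.2 CPM, SD, n = 2), opposite to Icos, and so was Cd86, the ligand gene of CD28 and CTLA-4 (260 ± 70.1 against 623 ± 51.5). Lgals9 and Ceacam1, both described as ligands of TIM-3, were higher in SSMs, where Havcr2 was low. Between nodes in SSMs, Cd86 rose by 1.25 ± 0.14 (log2, SE; edgeR adjusted p = 0.0026) and Nectin2, a TIGIT ligand gene, by 2.42 ± 0.35 (edgeR adjusted p = 0.00671), while Tnfsf4, the gene of the OX40 ligand, fell by 1.73 ± 0.22 (edgeR adjusted p = 0.00411). Cd274, the gene of PD-L1, was at 224 ± 14.1 CPM in SSMs from ndLNs and 244 ± 27.0 in SSMs from tdLNs and was not called (edgeR adjusted p = 0.787), although its receptor gene Pdcd1 fell.

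Among 10 further regulatory T cell genes, Il2ra and Ccr8 were called lower in SSMs from tdLNs, Il2ra from 370 ± 50.8 to 93.0 ± 4.73 CPM (SD, n = 2) and Ccr8 from 105 ± 5.41 to 31.9 ± 2.46. The other 8 were not called, in a comparison that called 3.04% of all genes tested. Of all 10 fold changes 6 were positive and 4 negative, with a median of 0.21 (log2). Neither gene is limited to regulatory T cells, and Foxp3 itself was at 0.975 to 3.09 CPM in these libraries. Of 12 transcription factor genes of activation and exhaustion, Tox, Tox2 and Tcf7 were called lower and Prdm1 higher in the same comparison. Tcf7, which encodes TCF-1 of T and innate lymphoid cells, fell from 800 ± 151 to 223 ± 20.6 CPM (log2 fold change -1.83 ± 0.14, SE; edgeR adjusted p = 0.00116).

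The genes whose profile over the 8 libraries was most like that of each receptor are given as a description, since these libraries share their groups. For Icos they were Txk, a T cell kinase gene, Pim2 and the T cell receptor segment Trbv13-3 (Pearson r at least 0.998). Tnfrsf18 was followed by Ramp3, Bcl2 and Ccr6, Tigit by Il17re, Il7r and Prss12, Tnfrsf9 by Gpx4, Stx11 and Stat4 and Pdcd1 by Slc25a51, Arf4 and Hk2. Havcr2 had BC035044, 1700025G04Rik and Fndc7 beside it, Ctla4 had Spint2, Gm8221 and AC158975.2, and Tnfrsf4 had Nek4, Snn and Spib. Among the members past the mean count cut-off, which leaves out Foxp3 and Lag3, Icos and Tigit were closest (r = 0.99). Tnfrsf9 and Havcr2 were the most opposed (r = -0.98).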

How the data were processed

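The authors amplified RNA of the sorted cells by SMART-Seq v4, sequenced it on a HiSeq instrument and aligned reads to GRCm38 (mm10) with STAR 2.5.3a. bcl2fastq 2.20.0.422 and Trimmomatic 0.36 are named in the submitters' processing notes. They deposited raw counts per gene for 16 samples. The annotation and strand setting are not given in the sources used here, and GENCODE M21 supplied symbols for 55154 of 55423 rows. The table also holds 2 added sequences with 6 counts, which were left out.

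Both lanes of each library agreed within sampling noise (chi-square per degree of freedom 0.955 to 1.02, against 29.3 to 53.1 between libraries of a group) and were summed, giving 42972328 to 48130352 counts per library. A floor of 3 counts is 0.0623 to 0.0698 CPM and covers counting error only. Genes with at least 10 counts in all and detected in at least 2 samples were fitted with group and pool in edgeR 4.0.16 (TMM, quasi-likelihood test, R 4.3.3), and were called at a Benjamini-Hochberg adjusted p under 0.01 and a mean normalized count per lane over 100. The labels number every library 1 or 2, and this number was used as the pool. The study says that each pool gave all 4 kinds of sample, but it counts 4 pools where 2 numbers were used here, so that the pairing by mice is not certain. Same-numbered libraries had deviations from group means that correlated by -0.194 to 0.148. Normalized CPM were computed on TMM-scaled library sizes. The code was tested on simulated data. Alternatives were the fit without pool, DESeq2 1.42.0, its size factors, no filter, single lanes, an earlier edgeR fit, another threshold, only the groups compared and each library left out. The genes, the lists and the rule for named genes (every member, the genes of the lists that were called or most abundant, and the 3 most alike genes) were chosen with earlier results of these data known.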

Additional observations from a re-analysis of the deposited data

Results flagged for a closer look

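Tnfrsf9 was flagged because its direction was opposite in the subsets. Its values in both SSM libraries from tdLNs were below both from ndLNs, and in both MSM libraries from tdLNs they were above both from ndLNs. Havcr2 and Ctla4 also had opposite node orders in the subsets, without overlap. For Tnfrsf9 the node difference in SSMs minus that in MSMs was -2.34 on the log2 scale. This difference contains the ndLN contrast by which the genes were chosen and was not tested on independent libraries. In the 8 fits without 1 library the difference ran from -2.43 to -2.24.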

How the results depend on the processing

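Among the single genes, 763 values stayed the same, 48 lost and 15 gained a call, 1 moved and 13 changed sign, all 13 of genes that were not called. Staying the same meant keeping direction and side of the threshold. For the subset difference in ndLNs, which had no test, it meant a small shift relative to the standard error. The value that moved was that of Foxp3 in ndLNs. Without 1 library, the log2 difference between subsets in tdLNs ran from -0.24 to 1.04 for Foxp3. The difference between nodes in SSMs ran from -0.36 to 0.20 for Tnfrsf4, which was 0.030 in lane 3 alone, and from -0.22 to 1.21 for Foxp3. Between nodes in MSMs the values ran from -0.62 to 0.078 for Pdcd1 and from -0.12 to 0.64 for Lag3, and the interaction ran from -0.16 to 0.47 for Icos and from -0.11 to 0.94 for Tigit. The cause was not tested.

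Between subsets in tdLNs, 1832 genes were called, 2907 by DESeq2, 3020 at an adjusted p under 0.05 and 508 to 1883 without 1 library, with 3 to 6 of the 10 members. Between nodes in SSMs, the 640 calls became 1793 by DESeq2, 1832 at 0.05 and 2 to 345 without 1 library, with 0 to 2 members, and 0 genes and 0 members when only the groups compared were fitted, where fewer samples leave 1 residual degree of freedom. Between nodes in MSMs, the 5 calls became 458 by DESeq2 with 3 members, 93 at 0.05, 24 and 17 in single lanes, 23 with the earlier edgeR fit, 0 with only the groups compared and 0 to 3 without 1 library. For the interaction, the 8 calls over all genes became 615 by DESeq2, 215 at 0.05, 25 and 29 in single lanes and 4 with DESeq2 size factors. It contains the ndLN difference used to choose the genes, so its calls among the members are not given. In the fit without the replicate block 9 genes were called between nodes in MSMs, and Havcr2 between nodes in SSMs was not called. No other call of the 10 genes between nodes, or between subsets in tdLNs, changed. With only the groups compared, the contrast between subsets in tdLNs also had 1 residual degree of freedom, and it called 1871 genes and 6 members. Why the node calls in SSMs were lost in such a fit was not tested. Low counts limit Foxp3, Lag3 and, in MSMs, Tigit.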
